A study of Arabidopsis thaliana with 18 samples.

Results

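The transcript response of wild-type Arabidopsis thaliana seedlings to norflurazon was measured by comparing 3 arrays of treated Col-0 with 3 arrays of untreated Col-0, the accession taken as wild type. These 6 arrays were chosen by their sample labels from 18 in all, and the other 12 hold the same pair of treatments in the mutants gun1-9 and gun5, with 3 arrays per group. All seedlings were 5 days old and were raised from seed on plates with sucrose in continuous light. The treated ones had 5 µM norflurazon in the medium throughout, and the untreated ones had none. Biotin-labelled total RNA was read on Affymetrix arrays, and the series design calls the 3 arrays of a group biological replicates. The labels do not say how many plants went into a sample, name no organ, and give no measure of greening, so that fewer cells of a type and less RNA per cell cannot be told apart.

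Norflurazon is a herbicide that blocks phytoene desaturase, an early enzyme of carotenoid synthesis. Without carotenoids, chlorophyll and light produce singlet oxygen that damages the thylakoids, and the plastids bleach. The plastid genome encodes core subunits of the photosynthetic complexes and of the plastid's own ribosome, whereas most plastid proteins are encoded in the nucleus and imported. Plastids pass their state on to the nucleus by retrograde signalling, and the gun (genomes uncoupled) mutants were found because nuclear photosynthesis genes remain partly active in them on this herbicide. GUN1 belongs to the pentatricopeptide repeat proteins and acts in plastids, while GUN5 encodes a subunit of magnesium chelatase in chlorophyll synthesis.

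Levels are the deposited intensities, on a linear scale, and changes are differences of the mean log2(intensity + 1), treated minus untreated, with the standard error (SE) of a limma fit. A gene was called where its p-value, adjusted by the Benjamini-Hochberg method over 22746 probe sets, was under 0.05. Array medians lay between 14.9 and 15.4 in untreated and between 16.2 and 16.3 in treated Col-0, and precision is limited by the number of arrays. Pearson's r between replicate arrays, across probe sets, was 0.993 to 0.994 in untreated and 0.995 to 0.996 in treated Col-0. The median coefficient of variation among replicates was 10.8% and 9.66%. Of 58 listed marker genes of cell types outside the green tissue list, 7 had a probe set of their own, and the marker lists for epidermis, phloem and xylem had none. The summed intensity of the antenna genes, which mark green tissue, was 10155 to 11675 in untreated and 1226.5 to 1673.1 in treated seedlings. That of the root markers EXPA18 and EXPA7 was 136.8 to 296.4 and 288.2 to 476.1, and that of the guard cell markers FMA, SPCH and MUTE was 24.2 to 31.3 and 22.7 to 26.1. The trichome gene TRY stood at 7.86, 9.23 and 10.9 untreated and 4.54, 4.46 and 4.46 treated and was called lower (log2 change -0.90). The part of these shifts in the results of other genes was not tested.

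The response was broad, and its large changes were mostly falls. Of 22746 probe sets, 8936 were called (39.3%), with 5506 higher (24.2%) and 3430 lower (15.1%). At least 2-fold, 2427 were called (10.7%), with 948 higher (4.17%) and 1479 lower (6.50%). Falls outnumbered rises at each larger size, with 115 higher and 512 lower at 4-fold or more, 27 and 199 at 8-fold, 11 and 75 at 16-fold and 5 and 27 at 32-fold. The median call was 0.62 log2 units higher or 0.87 log2 units lower. Over all probe sets the median log2 change was 0.03, with 5th and 95th percentiles of -1.23 and 0.94. The values of the treated and untreated arrays did not overlap for 11169 probe sets (49.1%). The share of calls that were higher was 61.6% on the deposited scale and 49.7% when each array was centred on its median.

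**Figure D1:**
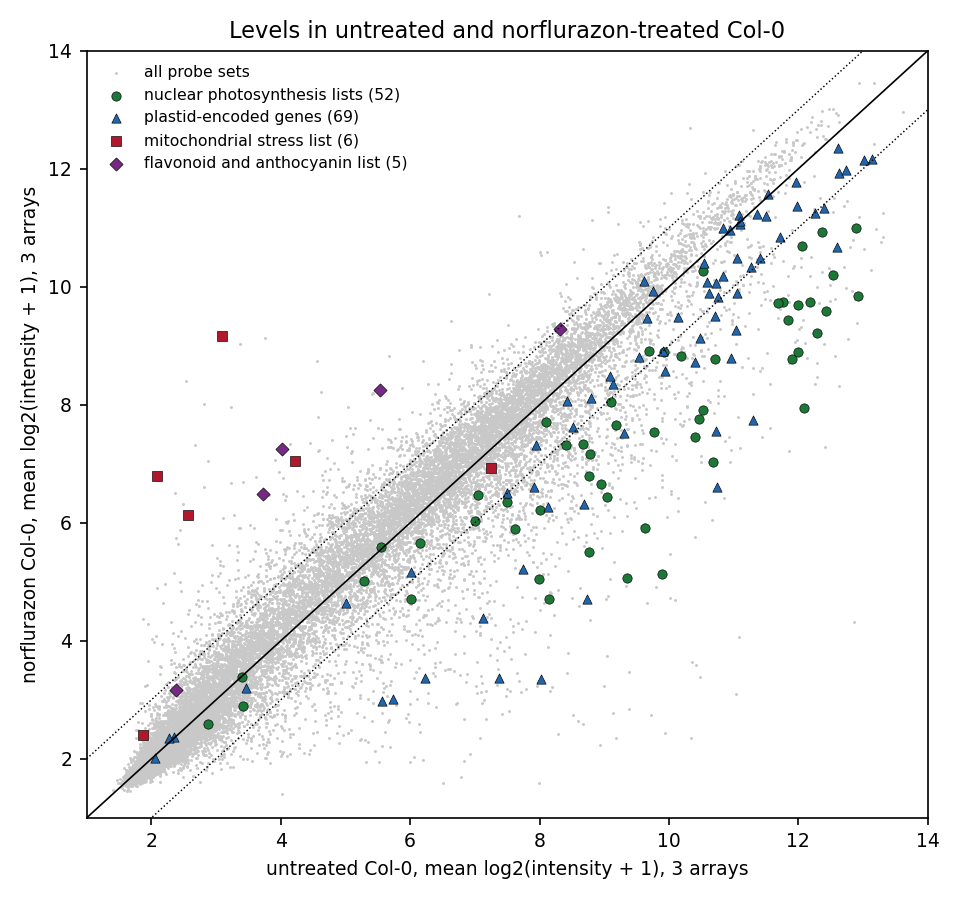
Mean log2(intensity + 1) of each probe set in untreated Col-0 (horizontal axis) and in norflurazon-treated Col-0 (vertical axis), 3 arrays per mean, with dotted lines at 2-fold and coloured symbols for members of 4 groups of lists. Points far below the diagonal outnumber those far above it, with 512 probe sets at least 4-fold lower and 115 at least 4-fold higher.

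Of the 1479 falls of at least 2-fold, 782 lay among the 5687 probe sets with the highest mean level, where 265 rose by at least 2-fold. Among the next 5686 the counts were 518 lower and 490 higher. The chromosomes of the nucleus did not stand far apart, with 5.28% to 5.98% of the probe sets of each called at least 2-fold lower. Of the 69 probe sets of the plastid genome, 26 (37.7%) were at least 2-fold lower, 47 were called lower and 0 higher. Of the 23 probe sets of the mitochondrial genome, 8 were called higher and 0 lower, against 24.2% and 15.1% of all probe sets.

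Every measured nuclear gene of the light reactions and of photorespiration fell. All 3 measured antenna genes, all 7 of the photosystems, electron transport and ATP synthase, and all 3 of photorespiration were called lower, against 15.1% of all probe sets. Most antenna and photosystem genes have no probe set of their own here, since 3 of 21 and 7 of 35 were measured. LHCB4.2 (AT3G08940), which encodes the minor antenna protein CP29 of photosystem II, read 3959.9, 4456 and 4737 on the untreated arrays and 211, 238 and 299 on the treated ones. The groups lay far apart (log2 change -4.14 ± 0.14 SE, adjusted p = 2.2e-13). Its paralogues LHCB4.3 and LHCB4.1 changed by -3.26 and -2.35 log2 units. ATPC1, the gamma subunit of the chloroplast ATP synthase, had a log2 change of -2.44, and PSAN, a lumenal subunit of photosystem I, had -2.84. The smallest fall in this list was -1.44 for AT2G26500.

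Factors that build the photosynthetic complexes fell along with the subunits. Of 14 measured assembly and stability factors, 13 were called lower, against 15.1% of all probe sets. Their median log2 change was -1.49, against 0.03 for all probe sets. CaS, the calcium-sensing protein of the thylakoid, read 1570.4, 1511 and 1878 untreated and 128, 133 and 128 treated (log2 change -3.65 ± 0.11 SE). CCB3, needed to attach a haem to cytochrome b6, stood at 252, 222 and 288 without and 32.1, 24.1 and 42.5 with the herbicide (log2 change -2.94). In neither gene did the groups overlap. TROL, which tethers ferredoxin-NADP reductase to the thylakoid, changed by -2.71, and HCF101, which delivers iron-sulfur clusters to photosystem I, by -2.29. The photosystem II assembly factors LPA19, PAM68, LPA2 and LPA1 changed by -1.80, -1.73, -1.35 and -1.13. LPA66, an RNA editing factor for psbF, was not called, with overlapping groups (log2 change -0.28). The call of LIL3:2 (-0.26) was lost without untreated array 3 or treated array 3 (adjusted p 0.0607 to 0.0617).

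Nuclear genes of the plastid NDH complex, which carries electrons around photosystem I, held some of the deepest falls of the assembly lists. Of 11 measured genes, 10 were called lower, against 15.1% of all probe sets, and the median log2 change was -1.30. The subunit gene NdhN (AT5G58260) read 576, 627 and 771 in untreated and 34.6, 31.2 and 31.99 in treated seedlings, a log2 change of -4.28 ± 0.12 SE (adjusted p = 3.17e-14). For NdhL the levels were 646, 809 and 959.6 untreated and 63.0, 63.3 and 51.8 treated (log2 change -3.73). CRR42, an assembly factor of the complex, went from 248, 280.4 and 324 to 25.9, 26.6 and 23.2 (log2 change -3.43). Treated and untreated arrays of these genes were separated by a wide margin. The RNA editing factors for ndh transcripts varied more: CRR21 changed by -0.97 and CRR28 by -0.53, whereas CRR22 had -0.02 and was not called. NDC1, an NAD(P)H dehydrogenase of plastoglobules, was called (-0.39), but not without any of the 6 arrays (adjusted p 0.055 to 0.111). Other organelle RNA processing factors, OTP70 to OTP86, had a median log2 change of 0.02 over 6 genes. Of these OTP70 was called lower (-0.45), and its call was lost without untreated arrays 1 or 2 or treated arrays 1, 2 or 3 (adjusted p 0.061 to 0.207).

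Chlorophyll synthesis genes fell at most measured steps, whereas HEMA2 and HEMA3, of its entry, were not called. Of 37 listed tetrapyrrole genes 10 were measured, and 8 of these were called lower, against 15.1% of all probe sets. At an unadjusted p under 0.05, 9 were lower, and 9 were called when each array was centred. PORB (AT4G27440), one of the light-dependent protochlorophyllide oxidoreductases, read 891, 842 and 1138 and then 29.9, 39.0 and 33.7 on the herbicide (log2 change -4.76 ± 0.13 SE, adjusted p = 2.33e-14), with no overlap. HEME1 and HEME2, the uroporphyrinogen decarboxylases, changed by -2.61 and -1.52. CHLI2, a subunit of magnesium chelatase, changed by -1.96, and CHLM, the methyltransferase that acts after it, by -1.94. GSA1 and HEMB1, which act on and after glutamate-1-semialdehyde, had smaller falls of -1.04 and -0.78. HEMA2 and HEMA3, glutamyl-tRNA reductase genes, had log2 changes of 0.05 and -0.28, overlapping groups and no call. In carotenoid synthesis, the pathway norflurazon blocks, both measured genes were lower, Z-ISO by a log2 change of -1.12 and LYC, a lycopene cyclase, by -1.14.

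Calvin cycle genes fell as well. All 4 measured Calvin cycle genes were called lower, against 15.1% of all probe sets. Their log2 changes ran from -3.13 for SBPASE, sedoheptulose bisphosphatase, and -3.09 for PRK, phosphoribulokinase, to -1.89 for RCA, Rubisco activase. HPR, the peroxisomal hydroxypyruvate reductase of photorespiration, changed by -2.31. ATSPS4F (AT4G10120), a sucrose-phosphate synthase, had the deepest fall of any gene with a symbol whose groups did not overlap, from 809, 731 and 881 to 27.9, 33.2 and 14.84 (log2 change -5.01 ± 0.21 SE). Of 8 starch and sucrose genes, 5 were lower and 1 was higher, against 15.1% and 24.2% of all probe sets. SBE2.2, a starch branching enzyme, and DPE1, a plastid glucanotransferase, changed by -1.30 and -1.16. The large subunits of ADP-glucose pyrophosphorylase went opposite ways, with APL3 at 11.7, 10.1 and 11.1 untreated and 35.4, 27.8 and 19.3 treated (log2 change 1.21) and APL4 at -0.53 on the log2 scale. Of 14 SWEET sugar transporter genes 3 were called, or 6 when each array was centred, while 39.3% of all probe sets were called. SWEET2 was lower (-1.78) and SWEET16 and SWEET1 were higher (0.85 and 0.56). In both groups 7 of the 14 had a mean log2 level under 2.26, the mean first quartile of the 18 arrays.

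**Figure D2:**
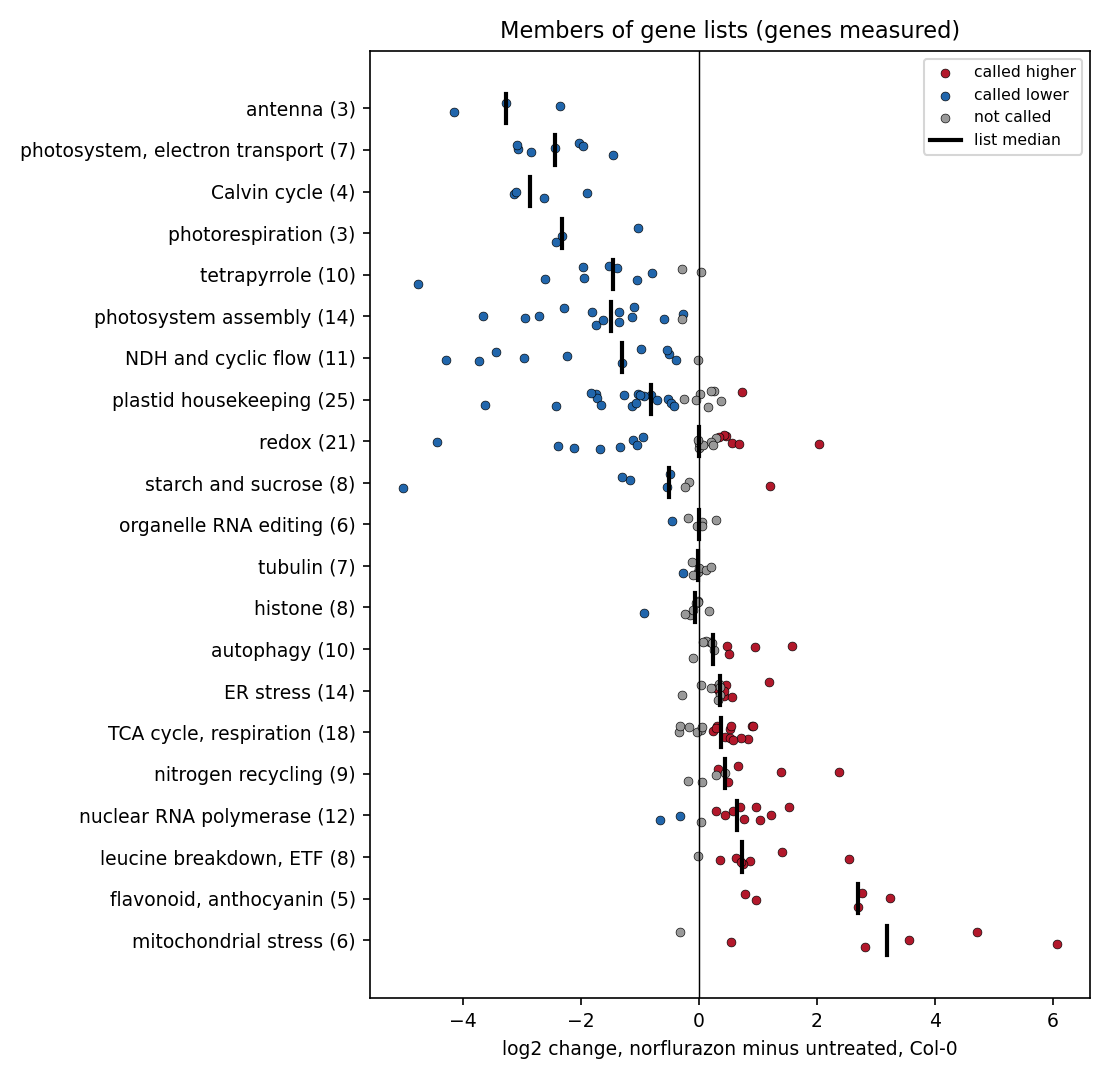
Log2 change in Col-0 (horizontal axis, treated minus untreated) of each measured gene of the gene lists (rows), with blue or red points for called genes, grey points for the others and a bar at each list median. Lists of photosynthesis lie to the left of 0, with a median of -3.26 for the antenna and -1.49 for assembly factors, and mitochondrial stress and anthocyanin genes lie to the right at 3.19 and 2.71.

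Genes for plastid functions outside photosynthesis mostly fell. Of 25 measured genes for plastid division, import, proteases, chaperonins and metabolism, 17 were called lower, 1 higher and 7 were not called, with a median log2 change of -0.80. Among all probe sets 15.1% were called lower and 24.2% higher. THIC, which makes the pyrimidine part of thiamine, read 658, 792 and 826 untreated and 54.1, 73.4 and 55.9 treated (log2 change -3.62), without overlap. FTSZ2-2 and FTSZ2-1, tubulin-like proteins of the plastid division ring, changed by -2.41 and -1.26. SECE1, a subunit of the thylakoid protein translocase, changed by -1.74, and EX1 (EXECUTER1), a plastid protein of singlet oxygen signalling, by -0.52. Cpn60 chaperonin genes differed among themselves, with log2 changes of -1.72 for Cpn60beta4, -0.47 for Cpn60beta2 and 0.74 for Cpn60beta3, the 1 gene of the list that rose. PAC, TAAC, SPPA, CLPB2 and NCLPP7 had changes between -0.24 and 0.21 and were not called. The call of MRL7-L (-0.42) was lost without untreated arrays 1 or 3 or treated arrays 1, 2 or 3 (adjusted p 0.0518 to 0.107), and that of CFM3B (-0.80) without untreated arrays 1 or 3 or treated array 2 (adjusted p 0.0502 to 0.0831).

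The redox and antioxidant genes moved in both directions, 8 lower and 6 higher of 21, against 15.1% and 24.2% of all probe sets. Their median log2 change was 0.01, and its sign changed with the scaling. TAPX (AT1G77490), the thylakoid ascorbate peroxidase, read 449, 428 and 444 on the untreated arrays and 20.7, 17.3 and 20.6 on the treated arrays. Its groups stood far apart (log2 change -4.43 ± 0.09 SE, adjusted p = 1.32e-15). SAPX, the stromal form of the same enzyme, read 388, 464 and 379.9 untreated and 451, 385 and 400.3 treated, and its groups overlapped (log2 change 0.01). Thioredoxin and reductase genes of the plastid were lower, with -2.39 for TRXF2, -2.10 for THX and -1.67 for NTRC. SRX, a sulfiredoxin, changed by -1.04. CCS, the copper chaperone for superoxide dismutase, went the other way, from 89.0, 111 and 97.3 to 422, 376 and 439 (log2 change 2.05 ± 0.15 SE). The cytosolic glutathione reductase GR1 (0.43) and the mitochondrial peroxiredoxin PRXIIF (0.35) rose by less, and the organellar reductase GR fell (-0.94).

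Plastid-encoded transcripts fell for the photosynthetic complexes and much less for the genetic machinery. Of 69 measured genes, limma called 47 lower, 0 higher (0 also at an unadjusted p under 0.05) and 22 in neither direction. Over all probe sets the shares were 15.1% lower and 24.2% higher. The median log2 change of the 69 genes was -0.85. All 5 psa genes of photosystem I were lower (median -1.86), as were all 15 psb genes of photosystem II (-1.21), all 6 atp genes (-1.35) and 9 of 10 ndh genes (-1.77). psbB, which encodes the CP47 core antenna of photosystem II, read 275, 220.2 and 289.8 untreated and 8.97, 9.78 and 8.81 treated (log2 change -4.68 ± 0.14 SE, adjusted p = 6.88e-14). psaA, a reaction centre protein of photosystem I, went from 1684, 1778 and 1671 to 90.6, 91.8 and 109.6 (log2 change -4.13). The groups of both genes were far apart. psbD and psbC, the reaction centre protein D2 and the CP43 antenna, changed by -4.02 and -3.56, and psbA, the reaction centre protein D1, by -3.17. rbcL, the large subunit of Rubisco, was not called, with overlapping groups (log2 change -0.36).

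The cytochrome b6f, polymerase and ribosomal genes of the plastid gave fewer calls and mostly smaller changes. Of 6 pet genes 3 were called lower, against 15.1% of all probe sets: petL (-1.38), petG and petA. The call of petA (-0.62) was lost without any of the 6 arrays (adjusted p 0.0541 to 0.0895) and that of petG (-0.85) without untreated arrays 1 or 2 or treated arrays 2 or 3 (adjusted p 0.0597 to 0.0937), so that 1 or 2 pet genes were called with any array left out. petB and petD, of the same complex, were not called, at -0.26 and 0.03. The plastid-encoded RNA polymerase gene rpoA read 2321, 2086 and 2094 untreated and 2619.6, 2105 and 2431 treated, with overlapping groups (log2 change 0.13). rpoC2 was called (-0.60), but its groups overlapped and the call was lost without untreated arrays 1 or 3 or treated arrays 2 or 3 (adjusted p 0.0557 to 0.118). Of 7 rpl genes limma called 0, against 1 lower at an unadjusted p under 0.05 and 1 or 2 called under some other settings. rpl14 read 1046, 735 and 617 untreated and 1573, 862 and 957 treated. Treated array 1 was the highest array for rpl14, and the treated and untreated values overlapped. Of 8 rps genes 3 were lower, rps16 by a log2 change of -0.997, rps2 by -0.64 and rps15 by -0.68, the last with a call lost without untreated array 1 or treated arrays 2 or 3 (adjusted p 0.0994 to 0.157). clpP, a protease subunit, and matK, a splicing factor, were not called (0.16 and -0.30), whereas accD, of fatty acid synthesis, was lower (-0.90). The call of psbI was lost without untreated arrays 1 or 2 or treated arrays 2 or 3 (adjusted p 0.0879 to 0.147), and that of psbJ without untreated arrays 1, 2 or 3 or treated arrays 2 or 3 (adjusted p 0.0513 to 0.16).

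**Figure D3:**
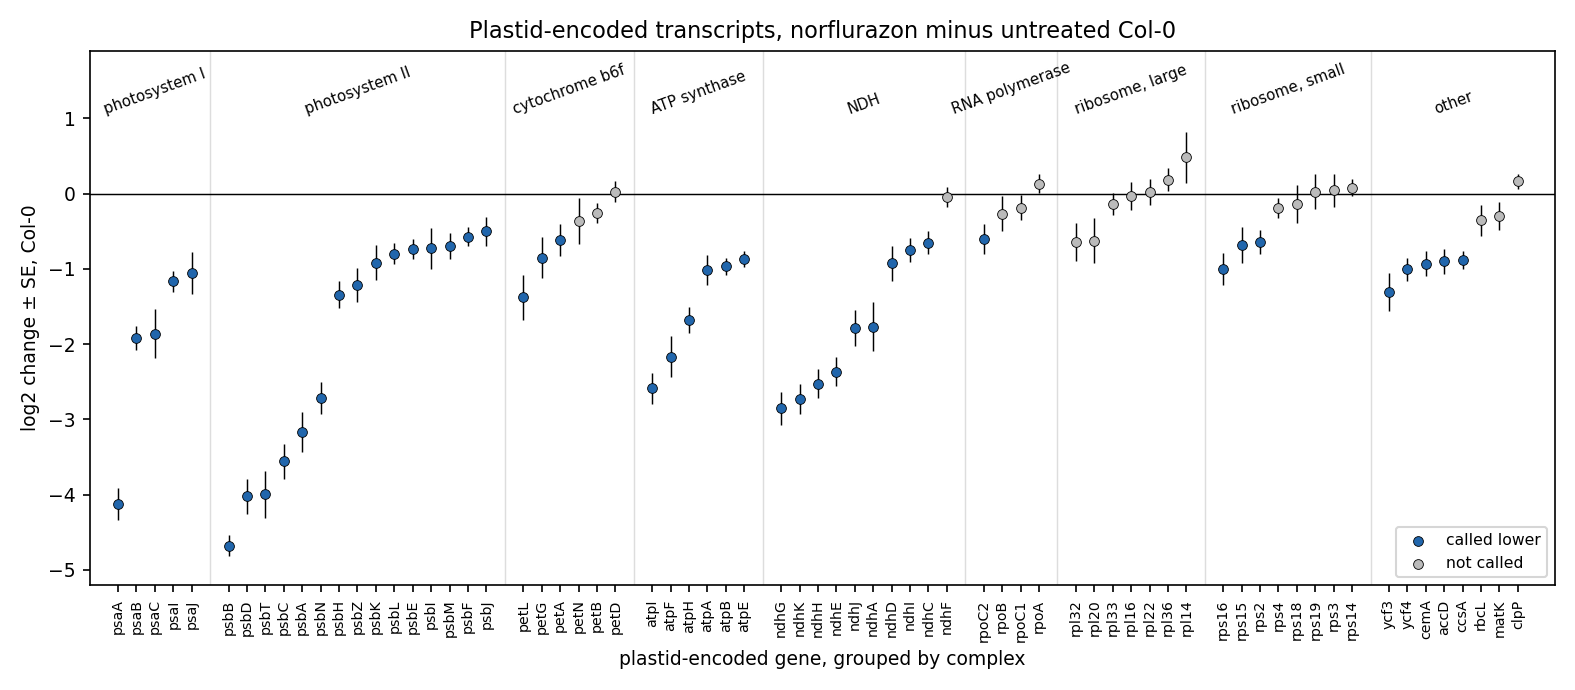
Log2 change in Col-0 (vertical axis, treated minus untreated) of each of 69 plastid-encoded genes, grouped along the horizontal axis by complex, with SE bars, blue points for called genes and grey points for the others. Photosystem, ATP synthase and NDH genes lie mostly below -0.5, down to -4.68 for psbB. Polymerase and ribosomal protein genes lie between -0.997 and 0.48.

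Transcripts of the mitochondrial genome rose or were not called. Of 16 genes of the mitochondrial genome limma called 7 higher and 0 lower, against 24.2% and 15.1% of all probe sets. At an unadjusted p under 0.05 the counts were 10 and 0. These genes had a median log2 change of 0.49. The median was 0.29 without treated array 1, 0.19 with all probe sets of each gene and 0.18 on the log2(intensity + 16) scale. cox1, a subunit of cytochrome c oxidase, read 68.9, 65.5 and 50.6 untreated and 188, 108 and 165 treated (log2 change 1.28 ± 0.21 SE), and cox2 changed by 0.92. ccb382, for cytochrome c maturation, changed by 1.40, and the complex I genes nad5 and nad4L by 0.85 and 0.84. nad1, nad2 and nad7 had log2 changes between -0.29 and -0.18 and were not called. The call of ccb452 (0.98) was lost without untreated array 3 or treated array 1 (adjusted p 0.0734 to 0.104). Copies of these sequences exist in the nuclear genome, and their part in the signal was not tested.

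Nuclear genes of respiration showed the same direction, with a smaller median than the mitochondrial genome in the main fit. The order was reversed without treated array 1 (0.376 against 0.286) and on the log2(intensity + 16) scale (0.266 against 0.18). Of 18 measured genes of the tricarboxylic acid cycle and the respiratory chain 12 were called higher and 0 lower in limma. Among all probe sets the shares were 24.2% and 15.1%. The counts of the list were the same at an unadjusted p under 0.05 (median log2 change 0.38). Both genes of the flavoprotein subunit of succinate dehydrogenase rose, SDH1-1 from 554, 542 and 539 to 1083, 978 and 999 (log2 change 0.90) and SDH1-2 by a log2 change of 0.92. The cytochrome c genes CYTC-2 and CYTC-1 changed by 0.85 and 0.59, and MPPBETA, a mitochondrial processing peptidase that is part of complex III, by 0.53. NDB4, an alternative NAD(P)H dehydrogenase, rose (0.54), whereas its relatives NDB1 and NDB2 had -0.32 and -0.32 without a call. The call of MAB1 (0.24) was lost without untreated array 2 or treated array 3 (adjusted p 0.0569 to 0.0759), and that of NDB3 (0.30) without treated array 2 (adjusted p 0.08).

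Genes listed as markers of mitochondrial stress had the highest median of any list with more than 1 measured gene (log2 change 3.19). Of 6 measured, 5 were called higher, against 24.2% of all probe sets. AT2G21640 read 11.5, 5.42 and 6.71 on the untreated arrays and 610.5, 543 and 573 on the treated arrays (log2 change 6.08 ± 0.25 SE, adjusted p = 2.66e-12). AT5G51440, a small heat shock protein gene, went from 4.39, 5.09 and 5.27 to 50.9, 69.7 and 93.7 (log2 change 3.57). None of their treated values came near an untreated one. AT2G41730 changed by 2.82, on a probe set of the design class whose probes can match other transcripts.

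Genes for the breakdown of amino acids rose as well. Of 8 measured genes of leucine breakdown and of the electron-transfer flavoprotein that takes up its electrons, 7 were higher, with a median log2 change of 0.74. Among all probe sets 24.2% were higher. MCCA (AT1G03090), the biotin subunit of methylcrotonyl-CoA carboxylase, read 89.3, 54.1 and 78.4 untreated and 441, 420.3 and 421 treated (log2 change 2.54 ± 0.23 SE), with no overlap. IVD, isovaleryl-CoA dehydrogenase, changed by 1.42, MCCB by 0.87 and ETFQO, the ubiquinone oxidoreductase of the chain, by 0.76. The call of ETFBETA (0.36) was lost without untreated arrays 1 or 2 or treated arrays 1 or 2 (adjusted p 0.14 to 0.18). Of 9 nitrogen recycling genes 5 were higher, against the same 24.2%. Among them were PPDK, pyruvate orthophosphate dikinase, from 37.3, 40.9 and 25.2 to 178, 180.3 and 181 (log2 change 2.38), and DELTA-OAT, ornithine aminotransferase (1.40). ALN and AAH, of ureide breakdown, had overlapping groups and no call (0.45 and 0.05).

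ICL (AT3G21720), the glyoxylate cycle enzyme isocitrate lyase and measured marker of seed reserves, read 478, 80.8 and 222 untreated and 2132, 2459.9 and 2493 treated (log2 change 3.52 ± 0.63 SE). Its groups did not overlap, although the untreated arrays differed several-fold, with array 1 highest and array 2 lowest. The same order of untreated arrays was seen in the late embryogenesis genes LEA18 (112, 11.8 and 35.2 untreated, 196, 81.5 and 97.8 treated) and AtLEA4-1 (67.7, 6.86 and 34.96 untreated, 102, 42.7 and 74.8 treated). In these genes treated and untreated values overlapped, and their calls (1.65 and 1.38) were lost without untreated arrays 2 or 3 or treated array 1 (adjusted p 0.0527 to 0.142) for the first and without untreated arrays 2 or 3 or treated arrays 1 or 3 (adjusted p 0.0501 to 0.308) for the second.

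Among autophagy genes, ATG8B, a ubiquitin-like protein of the autophagosome, rose from 58.2, 68.1 and 48.4 to 169, 175 and 179 (log2 change 1.58), and ATG8G changed by 0.96. In all 4 of 10 were called, near the 39.3% of all probe sets, and 2 when each array was centred or when only the Col-0 arrays were fitted. The other 2 were ATG8D and ATG8E, whose calls were lost without untreated array 3 or treated array 1 (adjusted p 0.073 to 0.133) and without untreated array 2 or treated arrays 1 or 2 (adjusted p 0.0722 to 0.222). Of 12 UBP deubiquitinase genes 7 were higher, and of 9 PUB ubiquitin ligase genes 4, against 24.2% of all probe sets. In these 2 lists limma called 0 lower, and 0 were lower at an unadjusted p under 0.05. UBP18 changed by 0.97 and PUB23 by 0.74. The UBP count was 3 without untreated array 2 and 4 without untreated array 1 or treated array 1 or 3.

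The anthocyanin genes rose together. All 5 measured members of the flavonoid list were called higher, with a median log2 change of 2.71. UF3GT (AT5G54060), a glycosyltransferase of anthocyanins, read 10.8, 18.4 and 17.7 untreated and 220.1, 121 and 132 treated, and DFR, dihydroflavonol reductase, read 23.7, 65.0 and 60.1 untreated and 403, 299 and 229 treated. Treated arrays were above all untreated arrays in both genes (log2 changes 3.24 and 2.71), and in both the treated values spread widely. UGT78D2, a flavonoid glucosyltransferase, and AT5MAT, an anthocyanin malonyltransferase, changed by 0.97 and 0.79. The wider phenylpropanoid list, which also holds UF3GT and DFR, had 6 of 18 higher, 3 lower and 9 not called. Among all probe sets 24.2% were higher and 15.1% lower. HCT and CCR2, of lignin precursors, were lower (-1.15 and -0.51), CHIL was higher (0.87), and BAN, of condensed tannins, was not called (-0.11). The call of CCR2 was lost without untreated array 2 or treated array 2 (adjusted p 0.0659 to 0.11).

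Most measured subunits of the nuclear RNA polymerases rose. Of 12 such genes 9 were higher and 2 lower, against 24.2% and 15.1% of all probe sets (median log2 change 0.65). NRPC2, a core subunit of RNA polymerase III, read 56.9, 51.1 and 49.5 untreated and 158, 149 and 152 treated (log2 change 1.53), and NRPA1 and NRPA2, the core of RNA polymerase I that transcribes ribosomal RNA, changed by 1.23 and 0.97. Without treated array 1, 7 of these 12 genes were called, against 11 with all arrays, since NRPB7, NRPB12, NRPE7 and NRPB6B lost their calls (adjusted p 0.0736 to 0.147). Outside the lists, 250 genes with a symbol were called higher and 83 lower without overlap, and the 20 largest of each direction were inspected after their values were seen. DIM1A, a ribosomal RNA dimethylase, went from 136, 124 and 109 to 320.2, 374 and 351 (log2 change 1.496), and PRH75, a DEAD-box RNA helicase, from 470.0, 483 and 399 to 1084, 1135 and 1192 (1.34). Rises further included chr31, a chromatin remodelling factor of the SNF2 type (2.82), ALPHA-VPE, a vacuolar processing enzyme (2.23), and SPT, the bHLH factor SPATULA (1.89), each from a level under 8.

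The corresponding falls outside the lists were led by ECS1, with 2441, 2985 and 2965 untreated and 152, 199 and 174 treated (log2 change -3.99 ± 0.12 SE). LrgB, a glycolate and glycerate transporter of the plastid envelope, read 1223, 1538 and 1577 untreated and 137, 111 and 142 treated (log2 change -3.47). Both had groups far apart. FUG1, the plastid translation initiation factor 2, changed by -1.31, CHL, a plastid lipocalin, by -1.29, and AOR, an alkenal reductase, by -1.98. HISN5B, of histidine synthesis, and VTC4, of ascorbate synthesis, changed by -1.64 and -1.46.

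Most gene families of metabolism and the cell wall contained members that went opposite ways. The medians of the families described here lay between -0.09 and 0.03, against 0.16 for 10 XTH genes of xyloglucan remodelling (2 higher and 2 lower) and 0.19 for 6 further cytochrome P450 genes (2 higher). The tau-class glutathione transferases GSTU18 and GSTU20 were among the deep falls, with GSTU20 at 870.0, 1436 and 1077 untreated and 98.8, 198 and 121 treated (log2 change -3.04) and GSTU18 at -3.52 on the log2 scale. GSTU25 and GSTU26 were called higher (0.58 and 0.41), and 7 of the 14 measured genes were not called. The call of GSTU25 was lost without untreated arrays 1 or 2 or treated arrays 1 or 3 (adjusted p 0.0536 to 0.114), and that of GSTU26 without untreated arrays 2 or 3 or treated arrays 1 or 2 (adjusted p 0.0547 to 0.178). Of 47 glycosyltransferases of the UGT family 11 were lower and 9 higher, against 15.1% and 24.2% of all probe sets, from UGT76E11 (-2.45) to UGT71C2 (1.73). Expansins loosen cell walls: EXPB3 went from 205, 416 and 273 to 25.8, 40.3 and 19.4 (log2 change -3.34), whereas EXPA20 and EXPA9 rose (1.204 and 1.07). Of 18 expansins 5 were lower and 3 higher, with 5 calls without treated array 1, and the call of the root gene EXPA7 (1.016) was lost without untreated array 2 or treated array 1 (adjusted p 0.13 to 0.191). Among 20 beta-glucosidases 6 were lower and 2 higher, with BGLU33 at -3.16 and BGLU46 at 1.43. Serine carboxypeptidase-like genes gave 7 lower and 1 higher of 29, with scpl31 at -2.35 and scpl35 at 0.86. TBL genes, some of whose products acetylate wall polymers, gave 5 lower and 4 higher of 22, with TBL26 at -2.58 and TBL37 at 1.21. GH9 endoglucanases gave 5 lower and 1 higher of 15, with GH9B8 at -1.65, and 3 calls without untreated array 2. Of 15 tetraspanin genes 4 were called higher, near the 24.2% of all probe sets, the largest TET6 (0.72). Of 19 cytochrome P450 genes of the CYP71B group 3 were called lower, near the 15.1% of all probe sets. When each array was centred 6 were called. In both groups 6 of the 19 had a mean log2 level under 2.26, the mean first quartile of the 18 arrays.

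Sulfur metabolism was divided in the same way. APS3, a plastid ATP sulfurylase, and SIR, sulfite reductase, fell (-1.49 and -0.73), whereas APS4 and HMT-1, a homocysteine methyltransferase, rose (0.65 and 1.26). In the glucosinolate list 4 of 9 were lower and 4 higher, against 15.1% and 24.2% of all probe sets. BCAT4, which starts the chain elongation of methionine, and AOP1 fell (-1.17 and -1.41), and the transporters GTR1 and GTR2 went opposite ways (-1.24 and 0.67). NAI2, a component of ER bodies, and PYK10, their beta-glucosidase, rose (0.71 and 0.40). Among iron regulators PYE fell (-0.94) and bHLH121 rose (0.85), and 4 of 7 were not called, while 39.3% of all probe sets were called.

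Stress and hormone lists differed in the direction of their calls. Of 17 dehydration and abscisic acid genes 8 were higher and 2 lower, against 24.2% and 15.1% of all probe sets. DI21 went from 541, 375 and 248 to 1298, 1342 and 1463 (log2 change 1.88), while the cold-regulated genes COR15A and COR15B fell (-1.13 and -1.16). In the list of endoplasmic reticulum stress genes limma called 7 of 14 higher and 0 lower, against 24.2% and 15.1% of all probe sets. At an unadjusted p under 0.05 the counts were 9 and 0. The count of calls was 3 when each array was centred on its median and 4 without untreated array 2 or without treated array 2. BZIP60, a transcription factor of the unfolded protein response, read 114, 88.1 and 97.2 untreated and 217, 227 and 244 treated (log2 change 1.202). The exchange factors Fes1A and Fes1C of Hsp70 rose (1.11 and 1.26) and Fes1B fell (-2.05). Of 12 heat chaperone genes 4 were higher, 1 was lower and 7 were not called, while 39.3% of all probe sets were called. SAG101, of plant immunity, and the defensin PDF1.4 rose (1.16 and 1.37), whereas PDF1.2 was not called (-0.44). Of 6 measured WRKY genes 1 was called, WRKY47 (0.89), or 2 without treated array 1.

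Of 17 auxin genes 8 had a mean log2 level under 2.26, the mean first quartile of the 18 arrays, in both groups. Of the 17, 13 were not called, or 10 when each array was centred, while 39.3% of all probe sets were called. The exceptions were WES1, GH3.3 and GH3.17 of the GH3 family, whose enzymes join auxin or other acids to amino acids (1.42, 1.08 and 0.97), and IAGLU, an auxin glucosyltransferase gene (-0.74). The cytokinin response regulator RR16 was lower (-1.32), and 4 of 6 regulators were not called, or 5 without untreated array 2 or treated array 2 or 3. Of these 6 regulators 4 had a mean log2 level under 2.26 in both groups. STOMAGEN, a mesophyll peptide that promotes stomata, read 249.6, 297 and 303 untreated and 94.1, 68.6 and 73.8 treated (log2 change -1.84 ± 0.18 SE). Its groups did not overlap, whereas the stomatal lineage factors SPCH, MUTE and FMA were not called (-0.22, 0.05 and -0.24). In the light and clock list HYH, a bZIP factor of photomorphogenesis, rose (0.58), and GI was not called (-0.32). The call of HYH was lost without treated array 1 (adjusted p 0.0574).

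Histone genes had a median log2 change of -0.06 with 1 of 8 called, HTB2 (-0.92), while 39.3% of all probe sets were called. Tubulin genes had a median of -0.01 with 1 of 7 called. The tubulin call, TUB7 (-0.26), was lost without untreated arrays 1 or 2 or treated arrays 1 or 3 (adjusted p 0.0906 to 0.198). HTB4, a histone H2B gene, and AT3G58610 were chosen as bright genes with a small change. HTB4 read 1313, 1188 and 1228 untreated and 1242, 1249.5 and 1148 treated, and AT3G58610 read 2695, 2739.8 and 2673 untreated and 2743, 2789 and 3014 treated, with the groups of HTB4 overlapping. Of 13 mitosis genes 9 were not called, or 11 without untreated array 2, while 39.3% of all probe sets were called. AUR1, an Aurora kinase, fell (-0.81), and SIM, an inhibitor of cyclin-dependent kinases, rose (1.03).

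**Figure D4:**
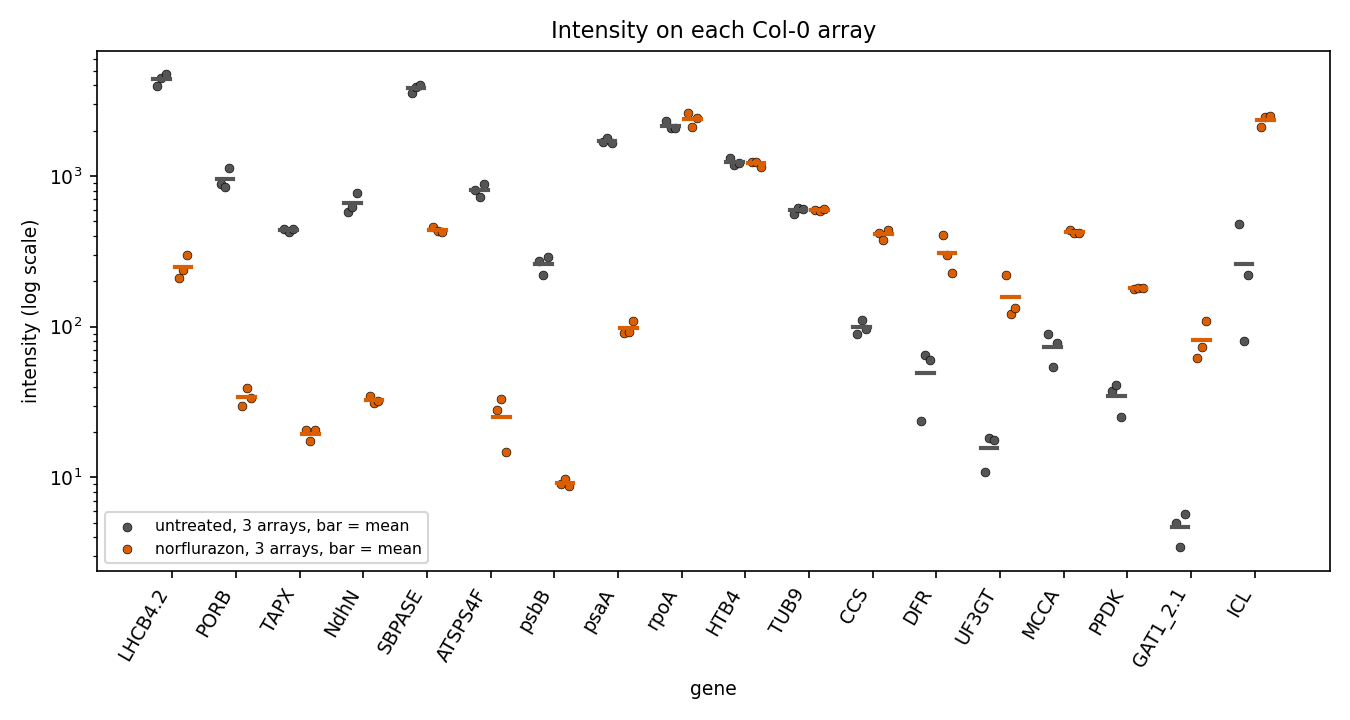
Intensity on a log axis (vertical) of selected genes (horizontal axis) on each of the 3 untreated and 3 norflurazon-treated Col-0 arrays, 1 point per array. Bars mark group means. NdhN, PORB, TAPX and psbB drop on all 3 treated arrays, rpoA and HTB4 overlap, and the untreated values of ICL spread from 80.8 to 478.

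Most genes measured here have no name in the reference table, and the deepest falls were no exception. Of the 25 largest falls among genes, 21 carry a locus code only. Of all 13513 probe sets with 1 gene, 1580 carry a symbol. Of those ranked 11 to 25, AT5G27290 read 251, 309 and 322 untreated and 8.46, 7.73 and 8.59 treated (log2 change -4.99), AT3G53980 changed by -4.90, AT5G01015 by -4.85, AT3G28270 by -4.85, AT2G27420 by -4.74 and AT1G78995 by -4.71. AT1G60590, AT4G28080, AT4G19530, AT3G62550 and AT1G23205 had log2 changes from -4.66 to -4.61. On the rising side the genes ranked 11 to 25 included AT3G45730 (3.28), AT2G47550 (3.22), AT1G43910 (3.17), AT1G33790 (2.91) and AT5G62210 (2.88). AT1G43910 read 14.75, 10.1 and 9.46 untreated and 108, 91.7 and 130.1 treated. AT1G20390 (2.77) is listed as a pseudogene. Probe sets without a single gene in the annotation supplied, 8730 not listed and 503 with several genes, moved as far. Of them 696 were called at least 2-fold lower and 436 higher, against 6.50% and 4.17% of all probe sets. The deepest fall of such a probe set was from 6813, 7581 and 8020.4 untreated to 21.2, 16.9 and 18.8 treated (log2 change -8.55), and the largest rise was from 5.87, 4.69 and 3.98 to 368, 305 and 346 (5.87).

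The wild-type response was set against that of the mutants by the difference of responses, mutant minus Col-0. For gun1-9, 3476 probe sets were called (15.3%), 8.07% of all higher and 7.21% lower. For gun5, 3831 were called (16.8%), 8.73% higher and 8.11% lower. Both differences use the same 6 Col-0 arrays, so their values are given side by side and are not independent. The nuclear photosynthesis genes fell more in Col-0 than in either mutant. For all 3 antenna, 7 photosystem, 4 Calvin cycle and 3 photorespiration genes the difference was called higher in both mutants. List medians of the response for the antenna were -3.26 (Col-0), -0.83 (gun1-9) and -1.52 (gun5), and -1.49, -0.49 and -0.05 for the assembly factors, of which 13 of 14 differed in each mutant. TAPX had log2 changes of -4.43, -1.65 and -1.46 in Col-0, gun1-9 and gun5, and NdhN of -4.28, -1.42 and -0.78.

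Plastid-encoded transcripts gave the opposite order for gun1-9. Their median log2 changes were -0.85 for Col-0, -3.95 for gun1-9 and -0.12 for gun5, and the difference was called lower in gun1-9 for 63 of 69 genes. For the rpl genes, with a median of -0.03 in Col-0, it was -3.57 in gun1-9. psaA had log2 changes of -4.13, -7.96 and -1.58 in the same order (difference for gun1-9 -3.83, adjusted p = 5.07e-08).

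Some rises also differed. The anthocyanin list had medians of 2.71 (Col-0), 0.66 (gun1-9) and -0.87 (gun5). All 5 genes differed in gun5 and 1 in gun1-9, where the differences of DFR and UF3GT were not called (adjusted p = 0.675 and 0.545). The mitochondrial stress list had 3.19, 4.79 and 2.91, and AT2G21640 had log2 changes in the same order of 6.08, 5.36 and 3.84 (adjusted p = 0.206 and 0.000166 for the differences). chr31 had 2.82 in Col-0 against 0.38 and 0.18 in the mutants, with adjusted p = 2.76e-07 and 1.12e-07 for the differences, and SPT had 1.89 against 0.14 and 0.20 (adjusted p = 3.38e-05 and 4.5e-05). AT3G28270 fell in Col-0 (-4.85) and had 0.21 in gun1-9 and 0.24 in gun5, with adjusted p = 1.08e-09 and 1.39e-09 for the differences. MCCA, by contrast, had log2 changes of 2.54, 2.37 and 2.98 in Col-0, gun1-9 and gun5 (adjusted p = 0.818 and 0.428 for the differences), and GAT1_2.1 of 3.84, 4.01 and 3.67 (adjusted p = 0.793 and 0.777).

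**Figure D5:**
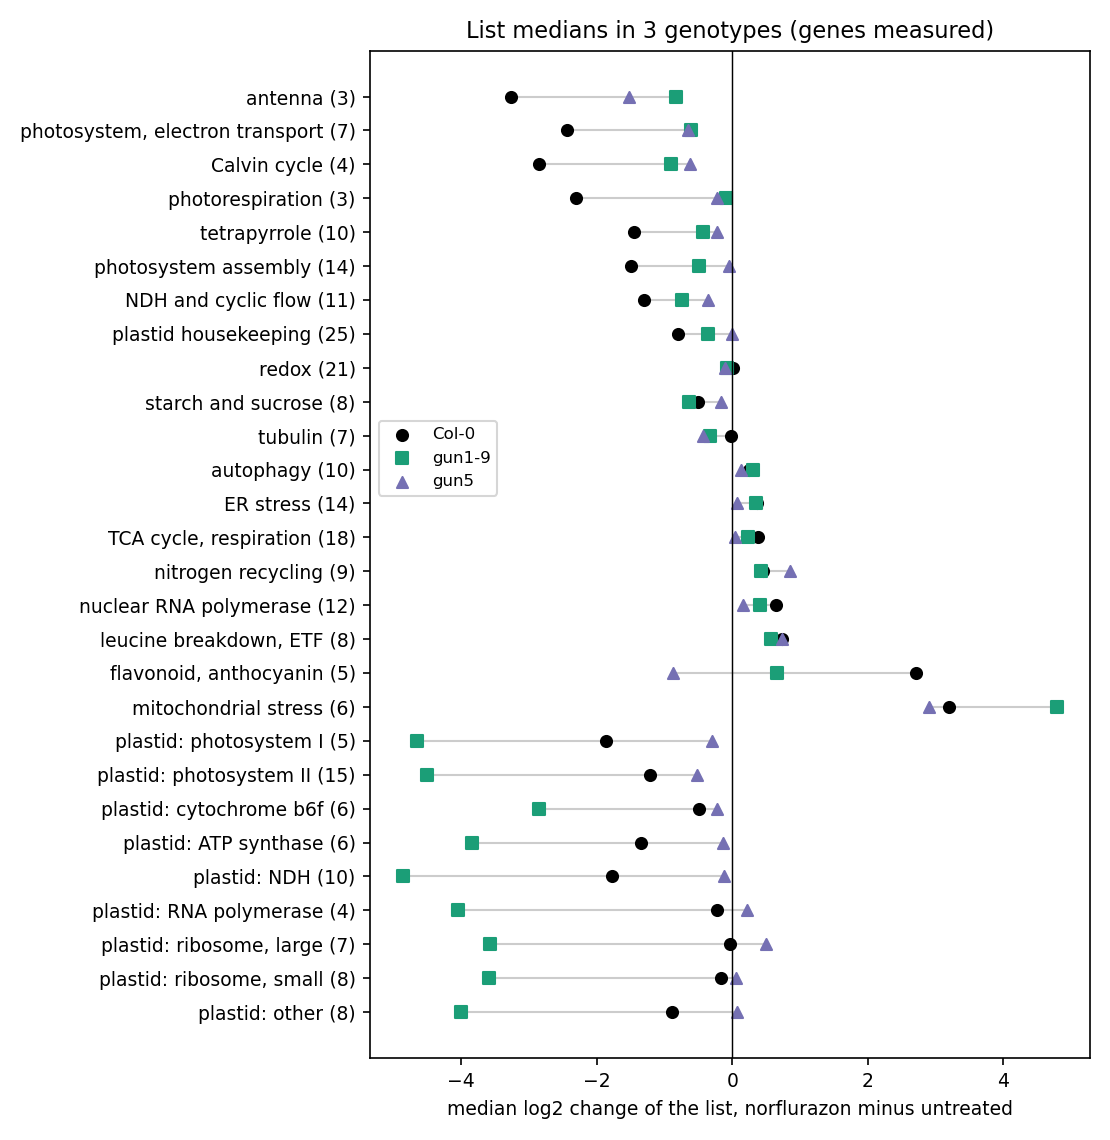
Median log2 change on norflurazon (horizontal axis) of each gene list (rows, number of measured genes in parentheses) in Col-0, gun1-9 and gun5. Col-0 has the lowest medians for nuclear photosynthesis lists (antenna -3.26, against -0.83 in gun1-9 and -1.52 in gun5), and gun1-9 has the lowest for plastid-encoded lists.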

How the data were processed

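The deposited table holds an intensity per probe set for each of the 18 arrays, on a linear scale. Per the submitters' processing notes, GCRMA and MAS5 were used, with no role or version given, and the medians of the deposited columns are nearly equal. Normalization between arrays can remove part of a shift shared by many genes, and background correction by probe sequence compresses dim values.

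From 22810 rows, 64 control probe sets were left out. The platform annotation names 1 gene for 13513 of the 22746 probe sets tested and several for 503, and 8730 are not listed. The reference table (TAIR10.1) holds 13436 of the 13513, and 1580 carry a symbol. Most list genes without a probe set of their own were therefore not analysed here. Values were taken as log2(intensity + 1), and limma 3.58.1 (lmFit, eBayes, 2-sided; R 4.3.3) fitted 6 group means to all 18 arrays. On simulated data, 90% of 100 probe sets changed by 1 log2 unit and 100% of 100 changed by 2 log2 units were called among 22746, with 11 unchanged ones. The number of arrays, 3 per group, sets the precision.

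Genes were named by rule. The rule took the 25 largest rises and falls among called genes whose groups do not overlap, and members of the gene lists. It also took 10 bright genes with the smallest change and 2 probe sets without a single annotated gene per direction. Where a gene had several probe sets the brightest was used. The gene lists and the genes described were chosen with earlier results of these data known, and no list was tested. Most lists were redrawn from the symbols of genes with a probe set of their own, in place of earlier lists of which several were dropped, and results for some genes are not reported here. Alternatives were quantile normalization, median centring, a replicate block, leaving out dim probe sets, trend and robust eBayes, a fit of only the arrays compared, all probe sets of a gene, log2(intensity + 16), a 2-fold minimum and each array left out. Figures were drawn with matplotlib 3.10.9.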

Additional observations from a re-analysis of the deposited data

Results flagged for a closer look

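The following results differed between Col-0 and a mutant by a test of the difference of responses, which was called for 3476 probe sets in gun1-9 and 3831 in gun5. The groups of 3 arrays were too small for the test of single outlying arrays.

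In gun1-9 the response was higher than in Col-0 for 3 antenna, 7 photosystem, 4 Calvin cycle, 3 photorespiration, 6 tetrapyrrole, 13 assembly and 8 nuclear NDH genes, and for 3 of 5 genes of the oxidative and heat stress list. It was lower for 63 of 69 plastid-encoded genes, namely 5 psa, 14 psb, 5 pet, 5 atp, 9 ndh, 3 rpo, 7 rpl, 7 rps and 8 other genes.

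In gun5 the response was higher than in Col-0 for 3 antenna, 7 photosystem, 4 Calvin cycle, 3 photorespiration, 9 tetrapyrrole, 13 assembly and 10 nuclear NDH genes, 17 genes of other plastid functions and 5 of starch and sucrose. Among plastid-encoded genes it was higher for 4 psa, 9 psb, 6 atp, 7 ndh and 5 other genes. It was lower for 5 flavonoid and 5 tubulin genes.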

How the results depend on the processing

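The count of calls in Col-0, 8936, lay between 7858 and 9034 over all alternatives. With the replicate block it was 9034, and the differences from gun1-9 and gun5 had 3587 and 3969 calls, against 3476 and 3831. Arrays with the same number in the treated and untreated group deviated together by r = 0.08, 0.10 and -0.08, so the numbers were not taken to pair the samples. The count of calls of at least 2-fold, 2427, was 1539 with log2(intensity + 16), since the larger constant shrinks changes of dim genes. Among these calls 39.1% were higher, against 31.2% after median centring and 29.5% with that constant. The share of higher calls in the differences was 52.8% for gun1-9 and 51.8% for gun5, and 59.9% and 66.3% after centring. Of 7 rpl genes 0 were called, against 2 with the replicate block and 1 each with the filter on dim probe sets, with centring and with only the arrays compared. Leaving out each array in turn gave 0 to 1 rpl, 0 to 1 rpo, 1 to 2 pet and 7 to 9 nuclear RNA polymerase calls, against 3 pet and 11 polymerase calls with all arrays. The cause of these shifts was not tested.

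Of 10112 values for 790 single genes and probe sets under the alternatives, 9597 stayed on their side of the threshold, 380 lost and 135 gained a call, and 0 changed direction in a called value. Of 523 counts for 40 further lists, 462 lay within 1.5 times the main count, and 61 in 21 lists did not. Calls near the threshold and dim genes limit the detail, since each mean rests on 3 arrays.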

Other observations

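Some genes differed widely among the untreated Col-0 arrays. AT2G47780 read 63.4, 8.01 and 21.5 on untreated arrays 1, 2 and 3, in the order seen for ICL and LEA18. AT1G19530 read 86.2, 12.8 and 11.4, with array 1 highest and array 3 lowest.

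The highest intensity on untreated Col-0 arrays 2 and 3 was the same value, 12345, and array 1 reached 13212. Untreated gun5 arrays 2 and 3 and treated gun5 array 2 had the same maximum of 12345. The 3 treated Col-0 arrays reached 11192 to 12114.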
